A study of Mus musculus with 4 samples.

Results

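The sites described here are those of Insm1, Neurod1 and Foxa2 around the genes of the islet hormones that are not made by beta cells: Gcg (glucagon), Sst (somatostatin), Ppy (pancreatic polypeptide) and Pyy (peptide YY). They were taken by position: a site belongs to the set when its summit, the inner position given for it, falls in the mm9 window chr2:62210000-62425000 for Gcg, chr16:23790000-23990000 for Sst or chr11:101860000-102070000 for the neighbours Ppy and Pyy. The genes and windows themselves were chosen with earlier results of these data known. Of the 60439 sites in the 3 deposited lists, 42 met the rule. They are 19 of 17453 Insm1 sites, 13 of 14607 Neurod1 sites and 10 of 28379 Foxa2 sites, with 14 in the Gcg window, 9 in the Sst window and 19 in the Ppy and Pyy window.

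The lists come from chromatin immunoprecipitation with sequencing in 1 mouse beta cell line, with 1 group for each antibody and 1 sample in each group. The line was raised from islets of RIP1-Tag2 mice aged 6 weeks, on a background mixed from C57BL/6, 129/ola and CBA/J, and was used at passages 10 to 15. In this transgene an insulin promoter drives a viral oncogene, so the cells are tumour-derived beta cells, and all groups share it, together with a medium that holds 25 mmol/l glucose and 15% serum. By their labels the Insm1, Neurod1 and Foxa2 groups differ only in the antibody, and no treatment is named for any of them. The IgG control group enters no comparison here. No expression values were used here, so whether these cells make any of the 4 hormones, or still carry beta cell markers, could not be checked.

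Glucagon is the hormone of alpha cells and raises blood glucose; the same Gcg precursor yields the incretin GLP-1 in gut cells. Somatostatin, from delta cells, inhibits the release of insulin and glucagon, and pancreatic polypeptide marks the PP cells. Peptide YY is related to pancreatic polypeptide and is made mainly in the gut, but also in islet cells. Insm1 is a zinc finger factor of endocrine and neuronal cells, Neurod1 recognises E-boxes as a dimer of the helix-loop-helix class, and Foxa2 is a forkhead protein that can bind closed chromatin. All 3 factors act in the development of several islet cell types, not of beta cells alone.

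In the order of genes of the GRCm38 RefSeq table, Gcg stands between the coding genes Dpp4, a protease that inactivates GLP-1, and Fap, a protease of the same family. Sst stands between Rtp4 and Rtp2, which encode receptor transporter proteins. Ppy and Pyy are direct neighbours, with the scaffold gene Mpp2 on one side and the urea cycle gene Nags on the other. The sites are given on mm9 and the gene table is on GRCm38, so no site was placed in an exon, intron, UTR or promoter or assigned to a gene: a site in a window may serve a neighbour.

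The 250 bases before the annotated start of each gene show which letters known for these factors stand there. All 4 genes lie on the minus strand, and the sequences below are RefSeq's for GRCm38.p6, from chr2:62483654-62483903 for Gcg, chr16:23890845-23891094 for Sst, chr11:102101320-102101569 for Ppy and chr11:102107833-102108082 for the first listed start of Pyy. These coordinates cannot be set beside the mm9 positions of the sites. Capitals mark E-boxes (CANNTG), forkhead cores (any of TGTTTAC and TGTTTGC, or else TATTTAC and also TATTTGC) and the Insm1 core (GGGGNC with TG standing 3 bases before it), each searched on both strands.
Gcg: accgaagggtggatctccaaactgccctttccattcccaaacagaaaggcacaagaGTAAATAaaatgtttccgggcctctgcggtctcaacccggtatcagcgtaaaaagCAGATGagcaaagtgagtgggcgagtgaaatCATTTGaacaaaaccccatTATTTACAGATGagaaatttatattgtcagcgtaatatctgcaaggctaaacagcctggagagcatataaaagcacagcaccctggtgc
Sst: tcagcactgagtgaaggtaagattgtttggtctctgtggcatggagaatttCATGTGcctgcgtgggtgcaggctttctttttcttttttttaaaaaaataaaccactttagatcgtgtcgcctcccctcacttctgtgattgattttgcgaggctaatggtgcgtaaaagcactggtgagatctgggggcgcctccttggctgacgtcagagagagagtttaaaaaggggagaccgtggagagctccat
Ppy: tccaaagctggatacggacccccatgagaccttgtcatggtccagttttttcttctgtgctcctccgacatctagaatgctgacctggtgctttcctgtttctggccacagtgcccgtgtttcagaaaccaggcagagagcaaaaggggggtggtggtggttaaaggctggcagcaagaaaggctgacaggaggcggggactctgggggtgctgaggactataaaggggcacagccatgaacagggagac
Pyy: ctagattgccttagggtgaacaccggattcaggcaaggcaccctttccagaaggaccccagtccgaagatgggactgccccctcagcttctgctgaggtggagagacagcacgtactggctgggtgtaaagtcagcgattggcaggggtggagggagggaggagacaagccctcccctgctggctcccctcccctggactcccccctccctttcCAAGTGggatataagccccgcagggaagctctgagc

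The Gcg promoter held the most matches, with 3 E-boxes and 2 forkhead cores. Its forkhead core TATTTAC at positions -89 to -83, counted backwards from the base before the start, shares its last base with the E-box CAGATG at -83 to -78. The other Gcg matches were the E-boxes CAGATG at -139 to -134 and CATTTG at -108 to -103, and a forkhead core on the opposite strand at -194 to -188. The Sst promoter held 1 E-box, CATGTG at -199 to -194, and the Pyy promoter held 1, CAAGTG at -36 to -31. The Ppy sequence held no match, and the Insm1 core was in none of the 4 printed sequences. Among all 32851 promoter sequences of this length in the table, 66.2% held an E-box, 11.9% a forkhead core and 6.22% the Insm1 core, and 1.03% held a forkhead core that overlaps an E-box, a pairing looked for after the Gcg sequence had been seen. These matches describe letters and say nothing of binding in these cells.

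Sites of Insm1 and Neurod1 were dense around Ppy and Pyy, and less so around Gcg and Sst. The Ppy and Pyy window held 9 Insm1 sites (95% Poisson interval 4.12 to 17.1, which covers counting error only, as do all intervals here) and 7 Neurod1 sites (2.81 to 14.4), but only 3 Foxa2 sites (0.619 to 8.77). For scale, the chromosomes 1 to 19 and X were divided into tiles as long as the window. Of 12544 tiles of 210 kb, 0.43% held at least 9 Insm1 sites, 1.64% at least 7 Neurod1 sites and 35.7% at least 3 Foxa2 sites. The number of Insm1 and Neurod1 sites was thus high among tiles and that of Foxa2 sites was not. Many of these tiles were empty: 44.7% held no Insm1 site, 50.8% no Neurod1 site and 28.8% no Foxa2 site. Tiles over sequence gaps were kept, and tiles were not matched to the window for gene content. Chromosome 11 is itself dense in sites: its tiles held a mean of 1.97 Insm1 and 1.68 Neurod1 sites, compared with 1.39 and 1.16 over all tiles, and among its own 578 tiles 1.04% and 3.11% reached the numbers of the window. No test between samples exists with 1 list per factor.

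The Gcg window held 6 Insm1 sites (interval 2.2 to 13.1), 5 Foxa2 sites (1.62 to 11.7) and 3 Neurod1 sites (0.619 to 8.77). The Foxa2 list is the longest, and with lists of equal length Foxa2 and Neurod1 had 3 sites each there. Of 12251 tiles of 215 kb, 4.38% held as many Insm1 sites or more. The corresponding shares were 17.5% for Neurod1 and 17.0% for Foxa2, so the Gcg numbers of these factors were common among tiles. The Sst window held 4 Insm1 (1.09 to 10.2), 3 Neurod1 (0.619 to 8.77) and 2 Foxa2 sites (0.242 to 7.22), and 11.8%, 16% and 49.5% of 13171 tiles of 200 kb held at least these numbers. The Poisson intervals of the 3 windows overlap for every factor, and whether the loci differ beyond counting error was not tested.

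**Figure D1:**
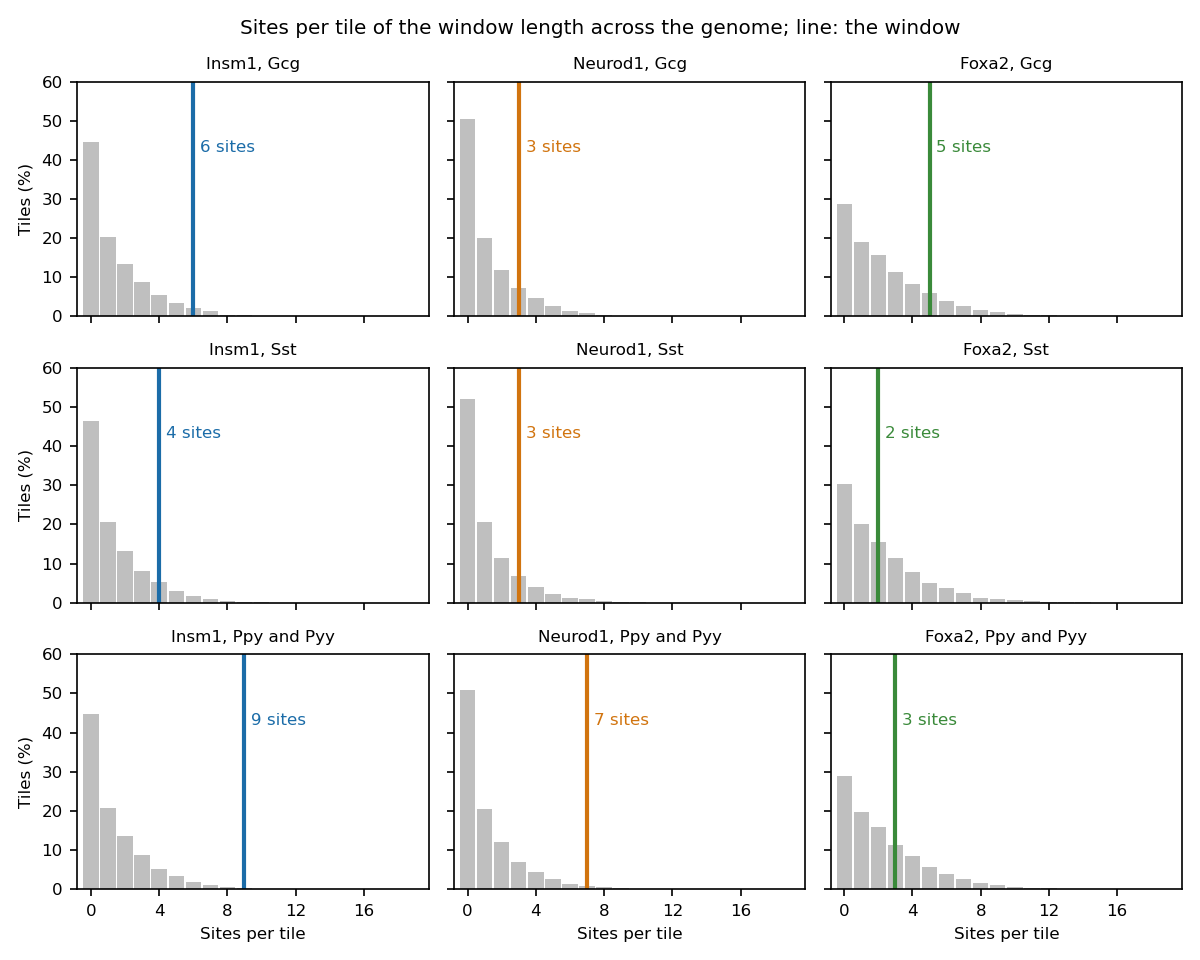
Share of genome tiles (vertical axis, percent) by the number of sites in a tile (horizontal axis), with 1 panel for each factor and each hormone window; the grey bars are all tiles of the window's length and the coloured line is the window itself. The lines for Insm1 (9 sites) and Neurod1 (7 sites) around Ppy and Pyy stand in the far tail, and the Foxa2 line of the Sst window (2 sites) stands inside the bulk of the bars.

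Overlapping sites were merged into regions, which gave 8 regions around Gcg, 4 around Sst and 9 around Ppy and Pyy. They are named below by window and by a letter in order along the chromosome, so that Gcg-a is the first region of the Gcg window. Each score is the whole number deposited by the authors for a site, whose scale no source used here defines. It is therefore set only against the same list, as a rank from the top or as a percentile, the share of the list that scores at or below it.

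Around Gcg the sites were mostly of middling score, and the factors led at different regions. The best Insm1 site was at Gcg-e (chr2:62258025-62258330), with a score of 237, rank 2305 and percentile 86.8. Neurod1 had its best site of the window there too, with a score of 83 and percentile 60.6, but the Foxa2 site of that region scored 35, at percentile 39.9. Gcg-e is thus a region of all 3 factors in which Insm1 stands highest in its list and Foxa2 lowest. Among tiles of this length, 15.4% had an Insm1 site that scored as high, and 29.5% had such a Neurod1 site, so sites of this strength are not rare.

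Foxa2 instead stood highest at Gcg-g (chr2:62321667-62321988), the other region of the Gcg window with all 3 factors, and Insm1 again stood above Neurod1. Its Foxa2 site scored 105, at percentile 84.2 of the Foxa2 list, while its Insm1 site scored 128, at percentile 49.3, and its Neurod1 site 54, at percentile 23.1. The Insm1 and Neurod1 sites at Gcg-g are therefore in the lower part of their lists. A small Foxa2 site of 74 bp, Gcg-h (chr2:62323256-62323330, score 35, percentile 39.9), followed after 1.27 kb and held no partner.

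The best Foxa2 sites of the Gcg window were in other regions than the best Insm1 site. Gcg-b (chr2:62221271-62221532) carried a Foxa2 score of 115, at percentile 86.2 and rank 3924 (23.2% of tiles had a Foxa2 site that scored as high), with an Insm1 site of score 106, at percentile 30.3. Gcg-d (chr2:62255398-62255580) carried a Foxa2 score of 114, at percentile 86.0. Its Neurod1 site scored 49, at percentile 11.2, and was 54 bp wide, the only site of the 42 at or under 60 bp; its end coincides with that of the Foxa2 site. Gcg-d was also the only region of the 21 in which Neurod1 was present without Insm1.

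The remaining Gcg regions held Insm1 alone. Gcg-a (chr2:62216587-62216685) had a score of 133 and Gcg-c (chr2:62249885-62250094) a score of 131, both close to the list median of 130. Gcg-f (chr2:62279239-62279359) scored 87, at percentile 10.6, near the list minimum of 76. The longest gap between Gcg regions, from Gcg-f to Gcg-g, was 42.3 kb, and 36.8% of the 39383 gaps between neighbouring regions in the whole lists were at least as long. No site of any list lay in the last 102 kb of the Gcg window. Gcg-e and Gcg-g are 63.3 kb apart, and 51.4% of all 6665 regions with the 3 factors had another as near, so their spacing is ordinary.

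The Sst window had the fewest sites of the 3 windows, but among them the strongest Foxa2 site. At Sst-a (chr16:23833908-23834138) Foxa2 scored 759, which is rank 59 of 28379 and percentile 99.8. The Insm1 site of Sst-a scored 443, rank 360 and percentile 97.9, and its Neurod1 site scored 94, at percentile 68.1. Only 0.342% of tiles of 200 kb had a Foxa2 site that scored as high, and 2.66% had such an Insm1 site, compared with 24.2% for the Neurod1 site. Sst-a thus ranks high in 2 of the lists and moderately in the Neurod1 list.

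A second region with all 3 factors, Sst-b (chr16:23842751-23843054), lay 8.61 kb to the right of Sst-a. Its Foxa2 site scored 315, at percentile 97.9, its Insm1 site 198, at percentile 79.3, and its Neurod1 site 51, at percentile 16. The order of percentiles, Foxa2 over Insm1 over Neurod1, was the same as at Sst-a and as at Gcg-g. How often this order occurs among all regions with the 3 factors was not computed. Of all 6665 regions that hold the 3 factors, 13.6% had another such region as near as Sst-a and Sst-b are to each other.

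Between Sst-b and Sst-c there was no site of any list for 141.0 kb, a stretch that includes the centre of the window. The Insm1 summits of Sst-a and Sst-b lay at -55.94 and -47.14 kb from that centre, and those of Sst-c and Sst-d at 94.49 and 98.66 kb. Gaps of at least this length made up 10.7% of all gaps between neighbouring regions, whose median is 25.5 kb. The regions to the right of the gap had low scores: Sst-c (chr16:23984361-23984519) held Insm1 alone, with a score of 117 and percentile 40.7. Sst-d (chr16:23988584-23988816) held Insm1, with a score of 100 and percentile 24.5, and Neurod1, with a score of 64 and percentile 39.9. The summit of the Neurod1 site lay only 1.28 kb inside the edge of the window, so a narrower window would lose Sst-d first.

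The Ppy and Pyy window held the region with the highest Insm1 and Neurod1 scores of the whole set. At Ppy/Pyy-d (chr11:101984317-101984512) Neurod1 scored 810, rank 12 of 14607 and percentile 99.9, and Insm1 scored 843, rank 45 of 17453 and percentile 99.7. Foxa2 scored 178 there, at rank 1861 and percentile 93.4. A Neurod1 site as strong was found in 0.0957% of tiles of 210 kb and an Insm1 site as strong in 0.359%. Among all regions with the 3 factors, 2.84% had a lowest percentile of at least 93.4, so few regions ranked as high in every list.

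Ppy/Pyy-e (chr11:101991329-101991557) followed after 6.82 kb, and 11.2% of regions with the 3 factors had another as near. Here Foxa2 had its best score of this window, 192 at percentile 94.3, with Neurod1 at 142 (percentile 85.0) and Insm1 at 187 (percentile 76.5). Every factor was at or above percentile 76.5 of its list at both regions. Of all regions with the 3 factors, 17.6% had a lowest percentile of at least 76.5. The last region with all 3 factors, Ppy/Pyy-g (chr11:102017600-102017817), lay 26.0 kb further (31.9% had another as near) and was weaker for the partners, with Insm1 at 193 (percentile 78.2), Foxa2 at 36 (percentile 41.7) and Neurod1 at 61 (percentile 35.7).

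The other regions around Ppy and Pyy held no Foxa2. Insm1 and Neurod1 were together at 4 of them. At Ppy/Pyy-a (chr11:101871474-101871819) Neurod1 scored 107, at percentile 74.7, and Insm1 134, at percentile 53.2. At Ppy/Pyy-b (chr11:101948921-101949072) Neurod1 scored 101, at percentile 71.9, and Insm1 only 90, at percentile 13.9. Neurod1 thus stood above Insm1 in rank at both. At Ppy/Pyy-c (chr11:101958355-101958450) both were near the foot of their lists, with an Insm1 score of 83 (percentile 6.7) and a Neurod1 score of 47 (percentile 5.9). At Ppy/Pyy-i (chr11:102050875-102051040) Insm1 scored 98 (percentile 22.4) and Neurod1 59 (percentile 32.5). Insm1 was alone at Ppy/Pyy-h (chr11:102027686-102027884), with a score of 188 at percentile 76.8, and at Ppy/Pyy-f (chr11:101999839-101999986), with a score of 95 at percentile 19.2. The longest gap, 77.1 kb from Ppy/Pyy-a to Ppy/Pyy-b, was matched or passed by 22.1% of all gaps.

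**Figure D2:**
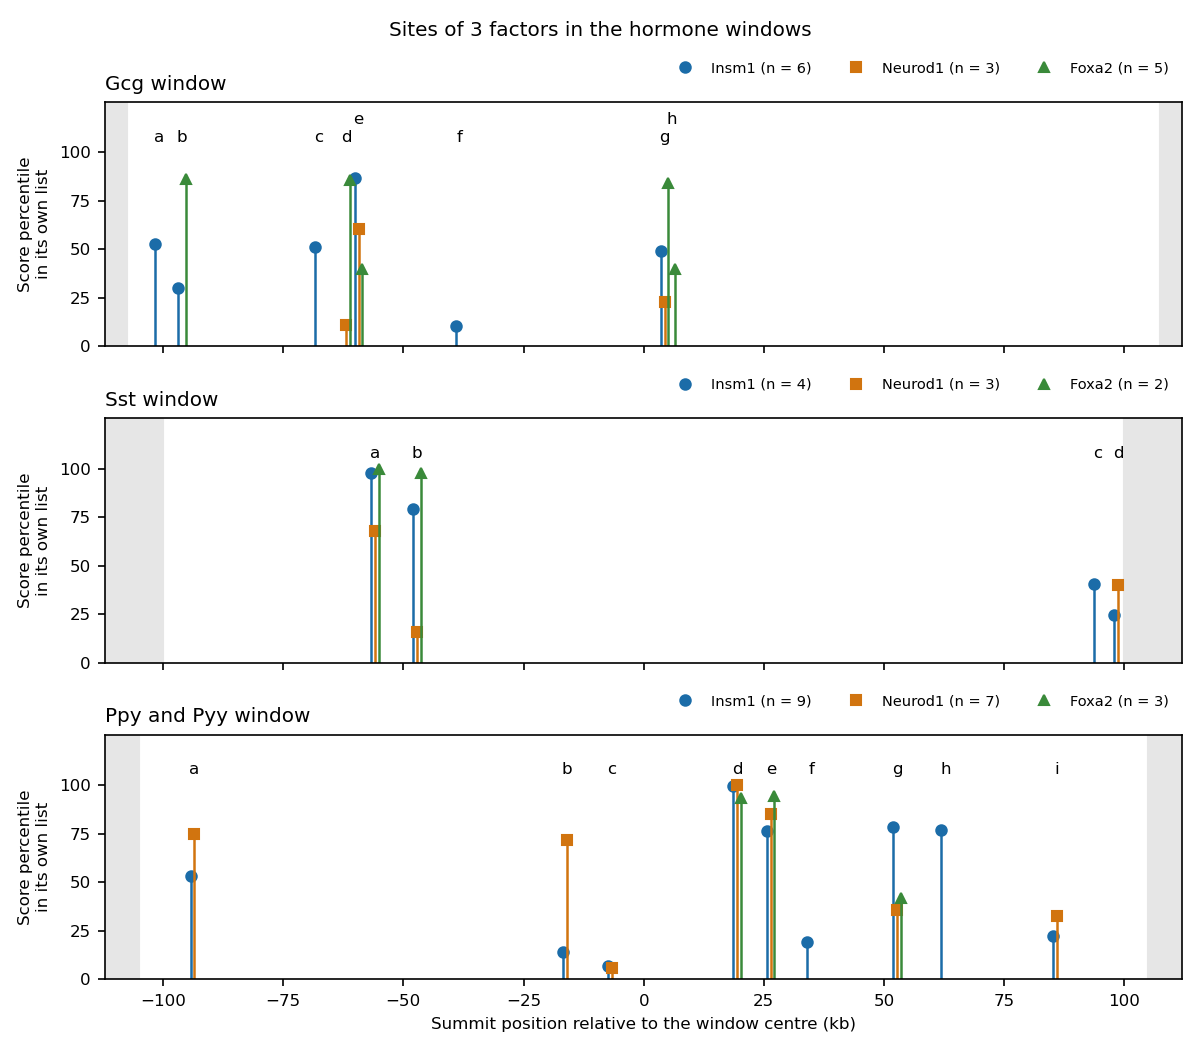
Position of each site (horizontal axis, summit in kb from the centre of its window) and its score percentile within its own list (vertical axis) for Insm1 (circles), Neurod1 (squares) and Foxa2 (triangles); letters name the regions, grey marks the outside of a window, and symbols of different factors are set 0.8 kb apart so that they can be told apart. The high triangles at Sst-a and Sst-b (99.8 and 97.9) and the 3 high symbols at Ppy/Pyy-d (93.4 to 99.9) stand out, and the Gcg symbols stay at or under 86.8.

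Regions with all 3 factors made up 7 of the 21 regions (33.3%, 95% Wilson interval 17.2 to 54.6%), and 16.9% of the 39412 regions of the whole lists were of this kind. By window they were 2 of 8 around Gcg, 2 of 4 around Sst and 3 of 9 around Ppy and Pyy. As many or more were found in 13.0%, 11.9% and 4.77% of tiles. Foxa2 alone, the most frequent kind in the whole lists at 43.1%, occurred once in the 21 regions, at Gcg-h. Insm1 alone made up 6 regions (28.6%, compared with 11.8% of all regions) and Insm1 with Neurod1 5 (23.8%, compared with 7.5%). As shares of all regions, these values and that of regions with all 3 factors depend on how many regions held Foxa2 alone. Counted per Insm1 site, 31.6% in the windows had neither partner (15.4 to 54.0%), compared with 26.7% of the whole list. Both partners were at 36.8% of Insm1 sites (19.1 to 59.0%), compared with 37.9%, and at 53.8% of Neurod1 sites (29.1 to 76.8%), compared with 44.9%. The shares per Foxa2 site are given below. Neurod1 alone, 8.65% of all regions, was not found in the windows.

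Within the 7 regions of all 3 factors, the factor that ranked highest was Foxa2 in 4, Insm1 in 2 and Neurod1 in 1. The corresponding shares over all 6665 such regions were 48.5%, 27.0% and 24.4%, so this mix was near that of the whole lists. The percentiles of the 3 factors differed by 6.5 points at Ppy/Pyy-d and 17.8 at Ppy/Pyy-e, and by 81.9 points at Sst-b. They differed by 31.7 points at Sst-a, 42.5 at Ppy/Pyy-g, 46.9 at Gcg-e and 61.1 at Gcg-g. Neurod1 was the lowest of the 3 at Gcg-g, Sst-a, Sst-b and Ppy/Pyy-g. The share of all such regions in which Neurod1 was the lowest was not computed, so this is not a trait of these loci.

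**Figure D3:**
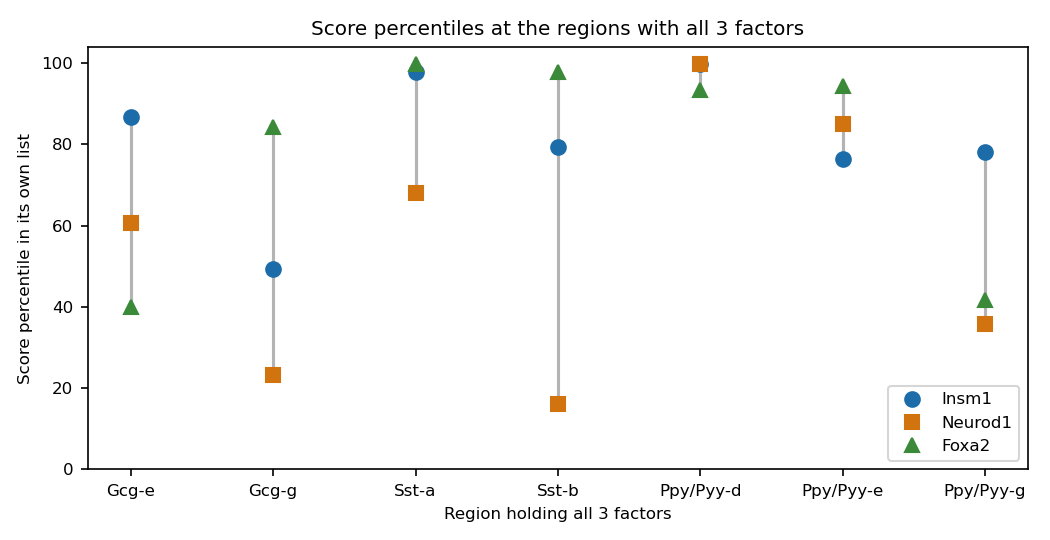
Score percentile within its own list (vertical axis) of the Insm1, Neurod1 and Foxa2 site at each of the 7 regions that hold all 3 factors (horizontal axis); the grey line spans the 3 values. The span is 6.5 points at Ppy/Pyy-d and 81.9 points at Sst-b, where the Foxa2 site is at 97.9 and the Neurod1 site at 16.

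Foxa2 and Neurod1 sites of the windows mostly lay on partner sites, with an overlap of at least 1 bp counted as shared. Of the 13 Neurod1 sites, 12 overlapped an Insm1 site (92.3%, 66.7 to 98.6%), compared with 65.7% of the whole list. Of the 10 Foxa2 sites, 8 overlapped an Insm1 site (80.0%, 49.0 to 94.3%) and 8 a Neurod1 site (80.0%, 49.0 to 94.3%), compared with 34.6% and 28.8% of the whole Foxa2 list. In the full lists these intervals lie above the shares of the whole lists, for Neurod1 with Insm1 only just (66.7 against 65.7%). That margin was lost without the Sst window (90.0%, 59.6 to 98.2%) and without the Ppy and Pyy window (83.3%, 43.6 to 97.0%). With lists of equal length the share was 76.9% (49.7 to 91.8%), and with the sites above the median score of each list 83.3% (43.6 to 97.0%). With all lists limited to sites above their median, the Foxa2 shares were 57.1% with Insm1 (25.0 to 84.2%) and 42.9% with Neurod1 (15.8 to 75%). With lists of equal length the Foxa2 shares were 85.7% with Insm1 and 85.7% with Neurod1 (48.7 to 97.4% for both). These intervals with equal length lie above the shares of the full Foxa2 list. The other intervals from the shortened lists include the shares of the full lists. The full lists are not a like comparison for either. The shares over the whole of the shortened lists were not computed, so whether the excess holds there was not tested. Both partners were present at 7 of the 10 Foxa2 sites (70.0%, 39.7 to 89.2%), compared with 23.2% of the whole list, and neither at 1 (10.0%, 1.79 to 40.4%), compared with 59.8%. No Neurod1 site of the windows lacked both partners, compared with 23.3% of the whole list; 0 of 13 allows a share of up to 23.1% when 3 counts are taken as the limit. Without the Gcg window all 10 Neurod1 and all 5 Foxa2 sites held Insm1, so each exception is a Gcg region. The shares of Neurod1 with Insm1 and of Foxa2 with either partner are not separate results. The 7 regions with all 3 factors count in each of them.

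Sharing rises with score in the whole Foxa2 list, and 7 of the 10 Foxa2 sites of the windows scored above its median. Their median percentile was 86.1, with a 95% interval from binomial ranks of 39.9 to 97.9 that includes 50, and it was 49.4 when the windows were widened. Among the Foxa2 sites above that median, 6 of 7 in the windows held Insm1 (85.7%, 48.7 to 97.4%), compared with 51.5% in the whole list, and 6 of 7 held Neurod1, compared with 42.9%. The first interval includes the share of the whole list and the second does not. The part of score in the sharing was not tested further.

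For Insm1 sites no difference in sharing between the windows and the whole list was detectable with this number of sites. Neurod1 was present at 12 of 19 (63.2%, 41.0 to 80.9%), compared with 55.0%, and Foxa2 at 8 of 19 (42.1%, 23.1 to 63.7%), compared with 56.2%. Neurod1 sites of the windows held Foxa2 in 8 of 13 cases (61.5%, 35.5 to 82.3%), compared with 55.9%. Both partners were at 7 of 19 Insm1 sites (36.8%, 19.1 to 59.0%), compared with 37.9%, and neither at 6 (31.6%, 15.4 to 54.0%), compared with 26.7%. All these intervals include the share of the whole list. The median percentile in the windows was 51.4 (22.4 to 78.2) for Insm1 sites and 39.9 (16 to 74.7) for Neurod1 sites, and both intervals include 50, the middle of a list.

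The partners that Insm1 met were counted in each window. Around Ppy and Pyy, Neurod1 was at 7 of 9 Insm1 sites (77.8%, 45.3 to 93.7%) and Foxa2 at 3 (33.3%, 12.1 to 64.6%). Around Gcg, Neurod1 was at 2 of 6 (33.3%, 9.68 to 70.0%) and Foxa2 at 3 (50%, 18.8 to 81.2%). Around Sst, Neurod1 was at 3 of 4 (75%, 30.1 to 95.4%) and Foxa2 at 2 (50%, 15.0 to 85.0%). The intervals are wide and overlap, and a difference between the loci was not tested.

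**Figure D4:**
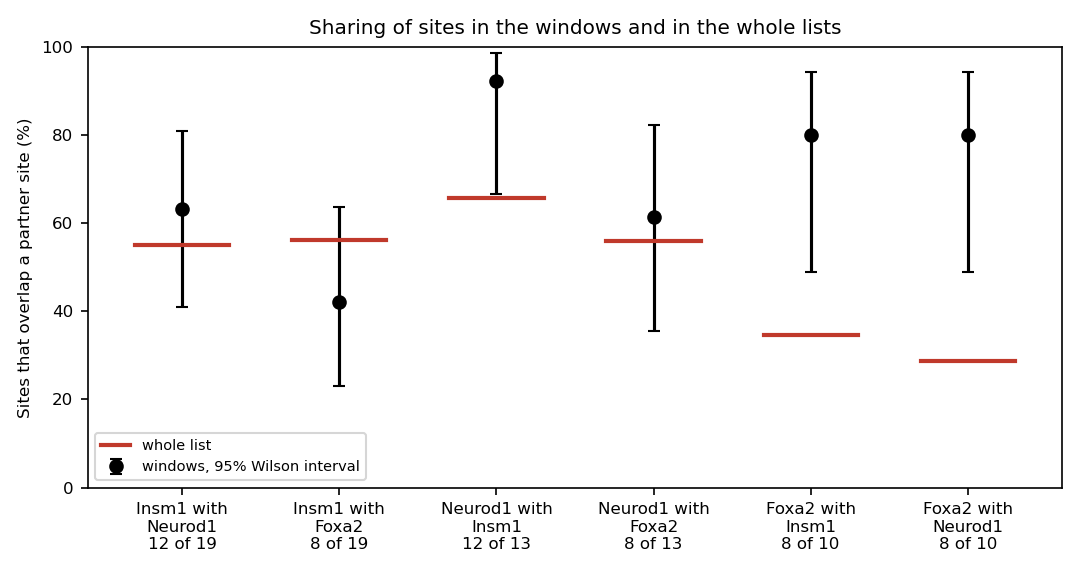
Share of sites that overlap a site of a partner list (vertical axis, percent) for the 6 ordered pairs of factors (horizontal axis, with the number shared of the number in the windows); points are the 3 windows together with 95% Wilson intervals and red lines are the whole lists. The points for Foxa2 with either partner (80.0%) and for Neurod1 with Insm1 (92.3%) lie above the red lines with their intervals, and the other points have intervals that include them.

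Summits of different factors lay within 100 bp of each other at every shared region of the windows. Shared regions were merged from overlapping sites, which by itself keeps their summits near each other. The share of shared regions in the whole lists with summits as near was not computed. At Gcg-e the 3 summits fell within 15 bp and at Sst-a within 18 bp. The widest spread was at Ppy/Pyy-e, where the Insm1 summit lay 100 bp from the Foxa2 summit and 88 bp from that of Neurod1, while the last pair lay 12 bp apart. At Gcg-g the Neurod1 and Foxa2 summits lay 9 bp apart, and the Insm1 summit 50 and 41 bp from them. At Ppy/Pyy-d the Insm1 and Neurod1 summits were 26 bp apart and Foxa2 was 61 and 87 bp away. The sites of the windows were of usual width, with a median of 165 bp for the Insm1 sites (175 bp in the whole list), 168 bp for the Neurod1 sites (147 bp) and 213.5 bp for the Foxa2 sites (199 bp).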

How the data were processed

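The reads were processed with CASAVA, Bowtie (0.12.7) and MACS (1.4) on mm9, per the submitters' processing notes. No source used here gives settings, threshold, control or the handling of repeats; the design text counts 6 samples, and 4 are listed. The deposited lists hold chromosome, start, end, an inner position read as summit, and a score per site of undefined scale. Read depth is unknown. Coordinates of sites are as deposited.

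Sites were taken by summit within the windows, shared at an overlap of at least 1 bp, and merged over the 3 lists into regions. Tiles of the window length ran from the start of each chromosome to its last site; sequence gaps were not removed. Ranks and percentiles were computed within a list. Intervals are 95% Wilson (shares) and exact Poisson (counts), and sites were treated as independent. With 1 list per factor no test was run, and groups came from sample titles. Named were the best site of each factor per window, regions with all 3 factors and the genes next to a member; as the regions are few, all were then given. The members, windows and lists were chosen with earlier results of these data known. All 4 genes matched the RefSeq promoter table (GRCm38.p6) by symbol; Pyy has 2 starts there. Overlap, merging and tiling were tested on simulated data or by direct counting. Tools were matplotlib 3.10.9, pandas 2.3.3, scipy 1.17.1, numpy 2.4.6 and Python 3.11.15. The alternatives tried were other windows, lists, overlap rules and tiles.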

Additional observations from a re-analysis of the deposited data

How the results depend on the processing

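Of 159 alternative values for 42 results, 129 stayed within 1.5 times the count or within the interval of the value reported; with so few sites these intervals are wide. All 18 median percentiles and all 36 densities and shares of tiles did, though some moved far within wide intervals: with widened windows the Foxa2 median percentile went from 86.1 to 49.4, and the Insm1 density around Sst went from 3.02 to 1.51 times the mean tile in the shorter window. In a central window of 50% of the length, Insm1, Neurod1 and Foxa2 sites numbered 2, 1 and 2 around Gcg and 1, 1 and 1 around Sst, and Insm1 and Neurod1 sites 5 and 4 around Ppy and Pyy. With windows widened on both sides by 50% of their length, Gcg had 5 Neurod1 and 11 Foxa2 sites, and Ppy and Pyy 15 Insm1, 12 Neurod1 and 5 Foxa2 sites. Among sites above the median score of their list, the numbers were 3, 1 and 3 for Gcg, 2 Insm1 and 1 Neurod1 for Sst, and 5 Insm1 and 4 Neurod1 for Ppy and Pyy. Regions with all 3 factors were then 0 around Gcg and 1 around Sst, of 2 regions there, and 42.9% of Foxa2 sites held Neurod1. These numbers fall by construction, as shorter windows and lists hold fewer sites. With lists of equal length, Gcg had 3 Foxa2 sites and 1 region with all 3 factors. Without the Gcg window the shares of Neurod1 sites with Insm1, Foxa2 with Insm1 and Foxa2 with Neurod1 were each 100%, and without the Ppy and Pyy window 83.3% of Neurod1 sites held Foxa2. The read depth behind a site is unknown and limits every statement on weak or missing sites. No paired analysis was possible because each group holds 1 sample.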

Other observations

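The windows were set by position, and the nearest site outside each edge scored below the median of its list, from percentile 5.9 to 49.4. Just outside the Gcg window lay a Neurod1 site 3.46 kb to the left (chr2:62206520-62206576, score 47, percentile 5.9) and a Foxa2 site 2.54 kb to the right (chr2:62427444-62427720, score 41, percentile 49.4). To the left of the Sst window the next site was a Foxa2 site far from the edge (chr16:23686701-23686942, score 24, percentile 14.2), and the first site inside was Sst-a, 44.1 kb from the edge. To the right a Foxa2 site lay 5.9 kb outside (chr16:23995789-23996007, score 39, percentile 46.6). The Ppy and Pyy window had a Foxa2 site 0.582 kb outside its left edge (chr11:101859383-101859589, score 28, percentile 25.0), and an Insm1 site 10.2 kb outside its right edge (chr11:102080124-102080316, score 84, percentile 7.7). The sites just inside were Gcg-a and Gcg-h, Sst-a and Sst-d, and Ppy/Pyy-a and Ppy/Pyy-i, whose values are given above.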
